A study of Mus musculus with 6106 samples.

Results

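The cells described here are splenic regulatory T cells (Tregs) that showed no transcript of 16 genes marking recent stimulation, effector differentiation, division or B cells. Tregs are a CD4 T cell lineage defined by the transcription factor Foxp3, and they hold other immune cells in check. Each cell with at least 500 unique molecular identifiers (UMIs, tags that count single transcripts) was reduced to 500 randomly drawn UMIs. A cell was kept when none of its drawn UMIs came from a gate gene. The 6 TCR-induced gate genes were Nr4a1, Egr1, Egr2, Tnfrsf9, Cd83 and Nfkbid, the 5 effector gate genes S100a4, S100a6, Ccr2, Klrg1 and Gzmb, the 2 cycling genes Mki67 and Top2a, and the 3 B cell genes Cd79a, Cd79b and Ms4a1. This gate held 4263 of the 5435 cells with at least 500 UMIs, out of 6106 deposited cells.

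Cells came from male mice aged 10 months of the strain labelled B6 Nr4a1-Gfp Foxp3-Ires-Thy1.1, in which green fluorescent protein (GFP) reports Nr4a1 and Thy1.1 reports Foxp3. All 3 groups carried both reporters. Sorted cells excluded DAPI, a dye that dead cells take up, and stained for CD4, TCRb and FoxP3-Thy1.1. GFPlow held the 0 to 20% range of GFP, GFPmed 40 to 60% and GFPhigh 80 to 100%. Each bin was 1 inDrops library, a droplet method for single cells, so there were 0 replicates, no test between bins was made, and the number of mice pooled is not stated in the labels. Brackets give 95% intervals for counting error only, which leave out variation between mice and libraries.

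Binding of the T cell receptor (TCR) to antigen induces immediate early genes such as Nr4a1 and Egr1 within a short time, and their transcripts decay quickly once signalling stops. The GFP protein outlasts the transcript, so a cell can be bright without holding Nr4a1 messenger RNA at the time of lysis. In the spleen, resting Tregs recirculate through lymphoid tissue with naive-like surface genes, whereas effector Tregs carry genes of migration and tissue residence. The question was which genes still follow the GFP bins among cells that show neither programme.

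The GFPlow, GFPmed and GFPhigh libraries held 2537858, 2566212 and 2384262 UMIs. Gated cells had a median depth of 1099.5, 1563.5 and 1111 UMIs, so GFPmed cells were read more deeply. In all, 95 cell barcodes occurred in more than 1 library, carried by 47, 47 and 42 gated cells. Levels are UMIs of a gene per 1000000 UMIs of a bin's gated cells (UPM), from all their UMIs. Values in threes are in the order GFPlow, GFPmed, GFPhigh, and the outer ratio is the log2 ratio of GFPhigh over GFPlow. A gene with 0 UMIs could have been present at up to 1.59, 1.41 and 1.82 UPM.

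Most cells of every bin passed the gate. In GFPlow 1640 cells passed and 483 failed, a gated share of 77.2% [75.4, 79]. In GFPmed 1312 passed, or 85.4% [83.5, 87.1], and in GFPhigh 1311 passed and 464 failed, or 73.9% [71.7, 75.9] (exact binomial intervals). Bins lost cells for different genes. TCR-induced gate genes had a drawn UMI in 5.61%, 8.85% and 21.9% of cells, and effector gate genes in 16.7%, 5.47% and 4.45%. Among failing cells, 355 of 483 from GFPlow held an effector gene and 388 of 464 from GFPhigh a TCR-induced gene. These values chose the cells and are a description.

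**Figure D1:**
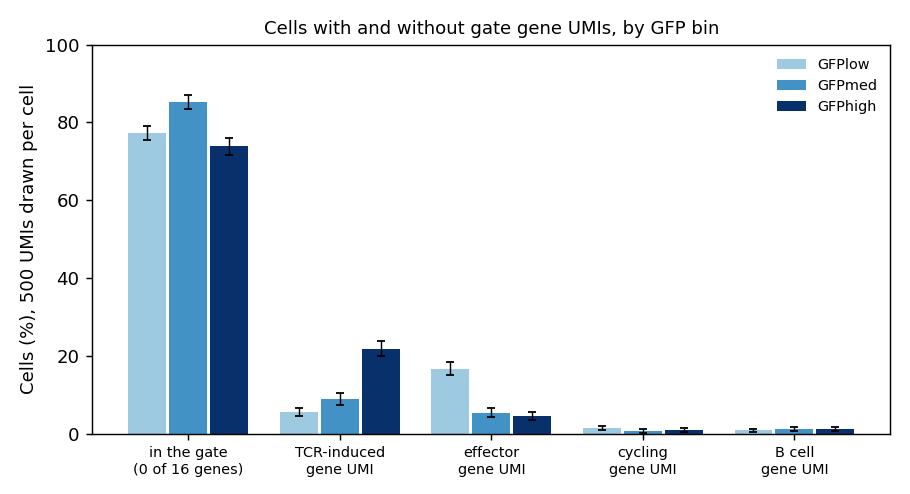
Share of cells (%) per GFP bin that passed the gate or held at least 1 drawn UMI of a gate gene class, at 500 drawn UMIs per cell, with exact 95% binomial intervals as error bars. The gated share was between 73.9% and 85.4%, and TCR-induced and effector genes removed cells mainly at opposite ends of the GFP range.

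The border of the gate was thin. Of the 1172 failing cells, 632 held exactly 1 gate gene UMI. Of the gated cells, 642 (15.1%) held a gate gene UMI among the UMIs that were not drawn, namely 11%, 17.1% and 18% by bin. With a gate on all UMIs of a cell, 3621 cells passed. The name "neither TCR-stimulated nor effector" therefore holds for 500 drawn UMIs and not for a cell's whole RNA.

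The undrawn UMIs were not read by the gate and show what it let through. Nr4a1 (chromosome 15, 101254269 to 101274795, mm10), the reporter's own gene and an orphan nuclear receptor, had 15.9, 50.8 and 78.3 UPM there and an outer ratio of 2.27 [1.53, 3.15]. The labels do not say whether transcripts of the Gfp reporter could add to its count. Tnfrsf9, the costimulatory receptor 4-1BB, followed the same order at 12.2, 39.9 and 160.7 UPM, with an outer ratio of 3.67 [2.91, 4.66]. Cd83, a surface protein of activated lymphocytes, had 15.9, 19 and 56.2 UPM. Its log2 ratio was 0.24 [-0.67, 1.21] at the first step and 1.56 [0.89, 2.28] at the second. Nr4a1 and Tnfrsf9 were still ordered by GFP in cells that showed none of their UMIs among the 500 drawn. For Cd83 only the second step was beyond counting error. Nfkbid had 15, 25.7 and 22.1 UPM, highest in GFPmed, with an outer ratio of 0.55 [-0.44, 1.59].

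Egr1 and Egr2, zinc finger factors induced within minutes to hours of TCR engagement, showed no such order. Egr1 was counted at 25.3, 25.0 and 19.1 UPM, with an outer ratio of -0.40 [-1.33, 0.49]. Egr2, at 8, 12 and 8 UMIs, had 7.49, 8.12 and 8.03 UPM and an outer ratio of 0.10 [-1.51, 1.71]. In failing cells, which the gate chose for such genes, the outer ratios of the undrawn UMIs were 1.45 for Egr1 and 2.19 for Egr2. Residual effector genes were highest in GFPlow as a sum. The 5 effector gate genes summed to 160.2, 42.6 and 41.2 UPM. S100a6, a calcium-binding protein, had 88, 31.1 and 18.1 UPM. Klrg1, an inhibitory lectin-like receptor, and the protease gene Gzmb were not ordered from GFPlow down to GFPhigh, with 6.56, 0.677 and 11.05 UPM and with 8.43, 1.35 and 5.02 UPM, from at most 11 UMIs in a bin.

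The gated cells carried Treg and T cell transcripts. After thinning, Foxp3 had a UMI in 16%, 12.6% and 16.2% of gated cells, and in 29%, 33.3% and 30.8% without thinning. Among 39 cells with at least 3 UMIs of the B cell gate genes, which should lack it, 0 had one after thinning. That allows a share of up to 7.69% by the limit of 3 counts used for zeros here, or 9.03% by the exact interval, and 2.56% had one without thinning. Those cells had a median of 1156 UMIs against 1226 in the gate. At least 1 of Foxp3, Ikzf2 and Il2ra was found in 37.5%, 37.4% and 47.3% of gated cells, against 7.69% [1.62, 20.9] of the B cell-marked cells. Gpr83 had a UMI in 0.854%, 2.44% and 4.04% of gated cells and Itih5 in 0.366%, 2.06% and 3.05%, or in 2.38%, 7.32% and 9.23% and in 0.854%, 4.5% and 6.56% without thinning. The B cell-marked cells had 0 for both genes, with and without thinning. The thinned shares lie below the 7.69% that 0 of 39 cells allows, and without thinning only Gpr83 in GFPhigh lies above it, so both genes are given by level. Of T cell genes after thinning, Cd3d was found in 19%, 22.3% and 25.4% of gated cells. Cd4 was found in 20.5%, 17.1% and 17.8%, and Thy1 in 48.1%, 39.8% and 33.6%. Of 8 T cell markers 5 had an outer ratio above 0, against 55.8% over all genes. The 3 below were Cd4 at -0.26, Lat at -0.29 and Thy1 at -0.67. The labels do not say whether Thy1.1 reporter transcripts add to the Thy1 count.

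Markers of other cell types were also counted in the gate, where 13.5%, 20.6% and 19.5% of cells held 2 or more UMIs of such markers. These shares were counted over all UMIs of a cell and not corrected for depth, which was highest in GFPmed. Cd37, Prdm1 and Xbp1 were left out of the count, and Ctss, the most abundant myeloid marker, was kept. The shares are therefore not read as shares of contaminating cells. Markers of myeloid cells, CD8 T or NK cells and platelets summed to 361.3 to 424 UPM, 89.5 to 107.8 UPM and 0.469 to 1.21 UPM over the bins, with S100a8 and S100a9 at 0. B cell markers outside the gate summed to 325 to 412 UPM, of which Cd37, also expressed by T cells, gave 242.6 to 253.6. Erythroid markers, mostly globin, summed to 288, 2176 and 66.6 UPM. Without the cells holding 2 or more such UMIs the outer ratio was 2.15 for Gpr83, 3.27 for Itih5, -2.32 for Myo6 and -1.33 for Igfbp4. For other results their part was not tested beyond the ranges given.

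Gated cells also had a larger share of ribosomal protein transcripts than failing cells. At 500 drawn UMIs the median share was 25.4%, 28.2% and 24.8%, against 17%, 21.6% and 21.4% in failing cells. Gated cells showed a median of 339 genes for GFPlow and 342 for GFPhigh, against 362 and 357 in failing cells. Within the gate these medians differed little between GFPlow and GFPhigh, and the median outer ratio of 74 measured ribosomal protein genes was 0.02. GFPmed stood apart. From GFPlow to GFPmed 69 of the 74 were higher, against 45.9% of all genes, with a median of 0.17. From GFPmed to GFPhigh 63 were lower, against 40.6% of all genes, with a median of -0.15.

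Outside the gate genes, 8023 genes had at least 50 UMIs over the gated cells. Comparing GFPhigh with GFPlow, 215 of them (2.68%) were at least 2-fold higher and 140 (1.74%) at least 2-fold lower. From GFPlow to GFPmed 1.23% were at least 2-fold higher and 0.835% lower, and from GFPmed to GFPhigh 1.89% were higher and 1.06% lower. A gene was called graded when its level changed in 1 direction at both steps and by at least 2-fold from GFPlow to GFPhigh. By that rule 2.16% of the genes were graded up and 1.43% graded down. With sums of cells, more cells with a transcript and more RNA per cell cannot be told apart.

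Many of these calls rested on few UMIs. Of 4097 genes with at least 200 UMIs, 37 were graded up and 27 down. When drawn and undrawn UMIs of the same cells were read separately, 58 of these genes were graded up in the drawn and 52 in the undrawn UMIs, and 23 in both, which is 39.7% of the first list and 44.2% of the second. For genes graded down the counts were 39, 29 and 15. Both readings come from the same cells and libraries, so they bear on counting error only.

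The genes graded up in both readings covered receptors, enzymes and regulators. They included Gpr83, Lrat, Gsto1, Chchd10, Ephx1, Igf2r, Cd200, Cd81, Lrrc32, Tnfrsf4, Ikzf4, Mxd1, H2afz, Itm2a, Ramp1, Ncoa7 and St3gal1. Ramp1, which shapes the receptor for calcitonin gene-related peptide, had 31.8, 42.7 and 84.2 UPM. Ncoa7, a coactivator of nuclear receptors, had 42.9, 70.8 and 109.6 UPM. The 15 genes graded down in both were Cd55, Eef2kmt, Fam101b, Gramd3, Igfbp4, Iigp1, Il7r, Irgm2, Kantr, Ly6a, Ly6c1, Myo6, Pde2a, S100a11 and Tagln2.

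Gpr83 (chromosome 9, 14860210 to 14870789, plus strand), a G protein-coupled receptor enriched in Tregs, had 22.2, 55.3 and 98.1 UPM. The counting intervals of these levels did not overlap, and the outer ratio was 2.13 [1.64, 2.67]. Itih5 (chromosome 2, 10153571 to 10256529, plus strand), a secreted heavy chain of the inter-alpha-trypsin inhibitor family, had 7.42, 33.3 and 67.2 UPM and an outer ratio of 3.14 [2.37, 4.10]. Both genes had their larger step between GFPlow and GFPmed, with log2 ratios of 1.30 and 2.13, against 0.83 and 1.01 between GFPmed and GFPhigh.

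Penk (chromosome 4, 4133531 to 4138819, minus strand), the precursor of the enkephalin opioid peptides, had the highest outer ratio of the ranked genes at 4.32 [3.26, 5.90]. Its levels were 3.18, 5.62 and 68.4 UPM, and the log2 ratio was 0.77 at the first step and 3.55 at the second. Its 113 GFPhigh UMIs came from 40 cells, and 1 cell gave 19.5% of them. Over the alternatives to the processing its outer ratio ranged from 3.5 to 5.04.

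The genes graded up with the highest ratios included 3 enzymes. Gsto1 (chromosome 19, 47854970 to 47864790, plus strand), an omega class glutathione transferase, had 30.7, 52.97 and 161.7 UPM and an outer ratio of 2.39 [1.98, 2.83]. Lrat (chromosome 3, 82892579 to 82903973, minus strand), which esterifies retinol for storage, had 55.1, 86.7 and 247.1 UPM and an outer ratio of 2.16 [1.85, 2.49]. Ephx1, the microsomal epoxide hydrolase, had 64.1, 117.2 and 204.7 UPM and an outer ratio of 1.67 [1.37, 1.99]. In all 3 the GFPhigh level was above the GFPmed level, and that above GFPlow.

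Chchd10 (chromosome 10, 75933130 to 75937747, plus strand), a protein of the mitochondrial intermembrane space, had 37.1, 76.4 and 169.6 UPM, with an outer ratio of 2.19 [1.81, 2.59]. Nrn1, the GPI-anchored protein neuritin, had 11.7, 21.6 and 59.9 UPM. Igf2r, the receptor for mannose 6-phosphate and insulin-like growth factor 2, had 91.1, 139.2 and 269.5 UPM. Tbc1d4, a GTPase-activating protein in glucose transporter traffic, was level between GFPlow and GFPmed at 72.6 and 71.7 UPM and reached 194.4 in GFPhigh. The remaining genes of the 15 highest were Stmn1, Hist1h2ao, Mxd1, Atpif1 and Cd200, with outer ratios from 1.59 to 1.61.

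**Figure D2:**
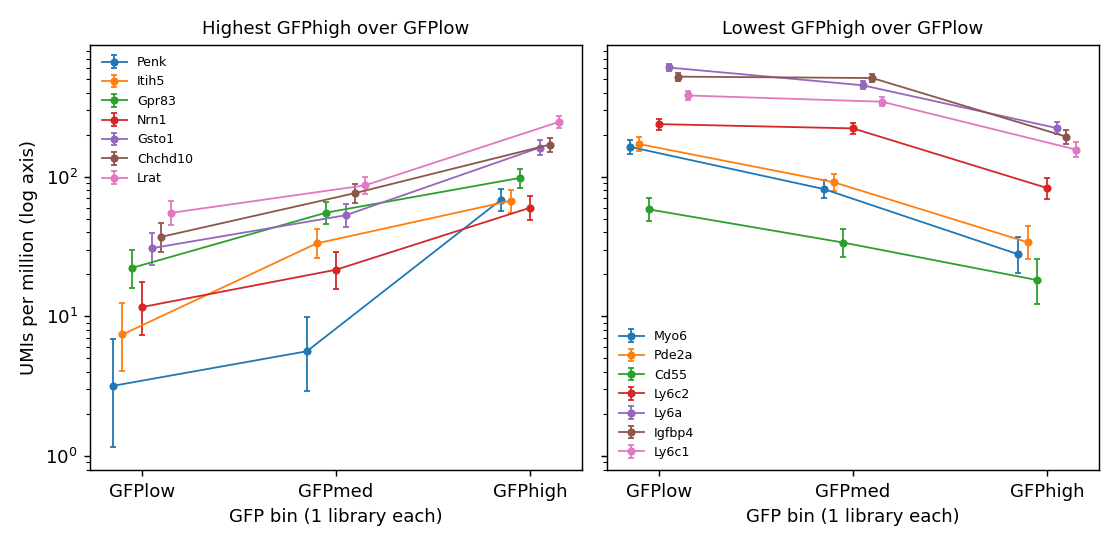
Levels (UPM, log axis) of 7 genes among the 15 highest and 7 among the 15 lowest ratios of GFPhigh over GFPlow in gated cells, by bin, with exact 95% Poisson intervals as error bars and points shifted sideways for sight. Gpr83 went from 22.2 to 98.1 UPM over the bins and Myo6 from 163.7 to 27.9, while Penk, Igfbp4 and Ly6c2 changed mainly at the GFPhigh step.

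Among genes with at least 100 UMIs over both bins and UMIs in at least 20 cells of the higher bin, the lowest ratios belonged to Myo6 and Pde2a. Globin genes lay lower, such as Hbb-bs at -3.41, but with UMIs in only 5 GFPlow cells. Myo6 (chromosome 9, 80165031 to 80311729, plus strand), an unconventional myosin, had 163.7, 81.6 and 27.9 UPM, with an outer ratio of -2.54 [-3.03, -2.10]. Pde2a (chromosome 7, 101421691 to 101512827, plus strand), a phosphodiesterase of cyclic nucleotides, had 171.1, 91.4 and 33.9 UPM and an outer ratio of -2.32 [-2.77, -1.92]. For both, the counting intervals of the 3 bins did not overlap.

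Some genes of resting Tregs were lower mainly in GFPhigh. Igfbp4 (chromosome 11, 99041244 to 99054392, plus strand), an insulin-like growth factor binding protein, had 520.2, 508.6 and 193.2 UPM. Ly6c2 had 237.9, 221.7 and 82.96 UPM and Ly6c1 381.4, 344.0 and 156.2 UPM. These Ly6 genes encode GPI-anchored proteins of near-identical sequence, so the authors' counting may have split or shared their reads. In all 3 genes GFPlow and GFPmed lay close together and GFPhigh apart. Cd55, the complement decay-accelerating factor, went down at both steps, at 58.3, 33.7 and 18.2 UPM.

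Of the 15 highest ratios, 12 stayed at least 2-fold under all 17 alternatives to the processing in which each kept at least 20 UMIs. The exceptions were Cd200, Hist1h2ao and Stmn1, and Hist1h2ao turned to -0.16 in 1 other random draw of UMIs. Of the 15 lowest, 12 also stayed at least 2-fold, the exceptions being Axin2, Pik3r5 and Ssbp4. The 17 counted the stricter gate described next, but not the absence of a gate. They also left out the widest gate, which added all TCR-response and effector genes (215 cells). Under the widest gate Hist1h2ao had -0.69. A stricter gate, added after the data were seen, also required 0 drawn UMIs of Egr3, Nr4a3, Irf4, Myc, Tnfrsf4, Itgb1, Itgae, Il1rl1 and Maf and left 3243 cells. Egr3 and Nr4a3 had 0 UMIs in all gated cells, so their requirement could remove no cell. Under the stricter gate the outer ratio was 2.19 for Gpr83, 2.81 for Itih5, 3.5 for Penk, 2.22 for Lrat, -2.54 for Myo6 and -1.50 for Igfbp4. Without any gate, another addition, the values were 2.36 for Gpr83, 3.05 for Itih5 and -1.36 for Igfbp4.

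**Figure D3:**
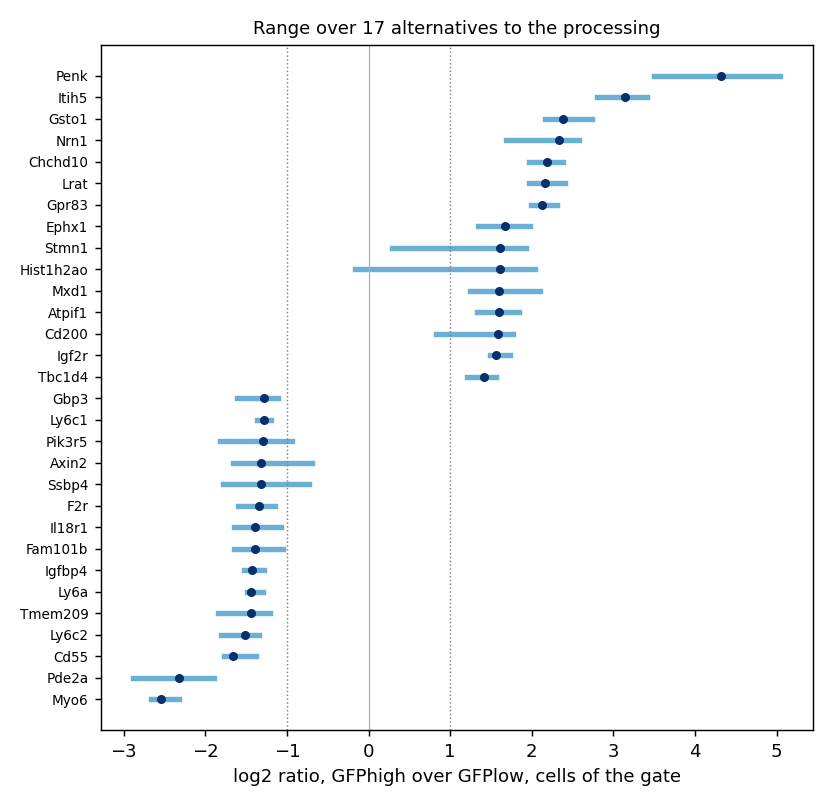
Log2 ratio of GFPhigh over GFPlow in gated cells for the 15 highest and 15 lowest named genes, as a dot, with a bar for its range over 17 alternatives to the processing and dotted lines at 2-fold. Bars of 12 genes on each side stay outside the dotted lines, and that of Hist1h2ao crosses 0. The widest gate and the absence of a gate are not among the 17.

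The gene lists below were drawn up with earlier results of these data known. The list of 10 genes that earlier followed the reporter most steeply (Penk, Lad1, Itih5, Nrn1, Gsto1, Gpr83, Marcksl1, Chchd10, Pdcd1 and Lrat) was chosen on these libraries and is not independent evidence. All 10 were graded up in the gate, where 2.16% of all genes were, with a median outer ratio of 2.26 against 0.05 over all genes. Lad1, an anchoring filament protein, had a ratio of 3.31 [2.20, 4.92], Pdcd1, the inhibitory receptor PD-1, 2.10 [1.23, 3.14] and Marcksl1 1.60 [0.72, 2.63]. Any of the 10 had a UMI in 7.80%, 16.4% and 32.95% of gated cells at 500 UMIs, and in 16.9%, 37.1% and 56.7% without thinning. In the B cell-marked cells the share was 25.6% [13.04, 42.1], so these shares are not read as expression per cell.

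Treg identity genes were mostly higher with GFP, while Foxp3 was not. Foxp3 had 371.4, 321.5 and 364.5 UPM, with an outer ratio of -0.03 [-0.19, 0.13]. Of 22 measured genes of the list, 16 had an outer ratio above 0 and 6 below, 9 were at least 2-fold higher and 1 at least 2-fold lower, and the median was 0.80. Over all genes 55.8% were above 0, and 2.68% and 1.74% passed those folds. Gpr83 and Lad1 are in this list and in the one before.

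Il2rb, the beta chain of the interleukin 2 receptor, had 205.5, 308.4 and 522.6 UPM, with an outer ratio of 1.35 [1.17, 1.52]. Il2ra, its alpha chain, had 344.3, 386.7 and 506.8 UPM, with 0.56 [0.41, 0.71]. Izumo1r, the folate receptor family member FR4, had 855.0, 981.5 and 1431 UPM. Ikzf2, the transcription factor Helios, had 395.2, 419.98 and 715.7 UPM, a difference that lay mostly in the last step. Lrrc32, which holds latent TGF-beta at the Treg surface, had 60.4, 89.5 and 133.8 UPM. Fgl2, a secreted suppressive protein, went the other way with 46, 13 and 9 UMIs and an outer ratio of -2.10 [-3.38, -1.11]. Of 11 measured genes with suppressive functions, some of them shared with that list, 7 were higher and 4 lower in GFPhigh, with 4 at least 2-fold higher, 1 lower and a median of 0.50. The shares over all genes were 55.8% higher, 2.68% at least 2-fold higher and 1.74% at least 2-fold lower.

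Genes of the interleukin 2 and STAT5 pathway showed no common direction. Of 18 measured genes 12 had an outer ratio above 0 and 6 below, with 1 (Il2rb) at least 2-fold higher and a median of 0.25. Over all genes 55.8% were above 0 and 2.68% at least 2-fold higher. Stat5a, a transcription factor of the pathway, had an outer ratio of 0.93 [0.48, 1.39] and Cish, an inhibitor it induces, 0.75 [0.52, 0.99]. Socs3, another inhibitor of cytokine signalling, had -0.87 [-1.10, -0.65]. In the NF-kappa-B list 12 of 19 genes were above 0, against 55.8% over all genes, with 2 at least 2-fold higher (Bcl3 and Rel), 1 lower (Icam1) and a median of 0.15.

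TCR-response genes outside the gate were weakly ordered. Of 38 listed genes 28 were measured, and 5 (Ccl3, Ccl4, Egr3, Nr4a3 and Spry2) had 0 UMIs in the gated cells of every bin. Of the 28, 18 were higher and 10 lower in GFPhigh, with 4 at least 2-fold higher, 0 lower, and a median of 0.39. Over all genes 55.8% were higher and 2.68% at least 2-fold higher, with a median of 0.05. The TCR-response genes had a median of 0.89 in the failing cells. Tnfrsf4, the costimulatory receptor OX40, had 100.7, 141.1 and 247.7 UPM in the gate, with an outer ratio of 1.30 [1.05, 1.55]. Bcl2l11, the death-promoting protein Bim, had 1.03 [0.66, 1.41], and Cd5, a negative regulator whose level follows TCR signal strength, had 0.66 [0.43, 0.90].

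Cd69, an early activation marker, ran against the bins in the gate. It had 72.05, 67.03 and 36.9 UPM, with an outer ratio of -0.96 [-1.42, -0.52] in the gate and 0.94 in failing cells. Spry1, a feedback inhibitor of receptor signalling, had -0.33 [-1.10, 0.41] in the gate and 2.49 in the failing cells. Hspa5, an endoplasmic reticulum chaperone, had 370.3, 298.1 and 369.4 UPM in the gate, equal at both ends, and an outer ratio of 0.80 in failing cells. Genes that set off the TCR signal were close to level, with 0 of 22 at least 2-fold higher, 1 (Grap2) lower and a median of 0.05. For all genes the shares were 2.68% and 1.74% and the median 0.05.

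Of 22 inhibitory genes 15 had an outer ratio above 0 and 7 below, with 3 at least 2-fold higher (Pdcd1, Cd200 and Lag3) and a median of 0.41, against 55.8% above 0 and 2.68% at least 2-fold higher over all genes. Cd200, ligand of an inhibitory receptor, had 21.2, 25.3 and 64.2 UPM. Tox, a factor of chronically stimulated T cells, had a ratio of 0.82 [0.53, 1.12]. Dgka, which ends diacylglycerol signals, had -0.33 [-0.47, -0.18].

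Of 24 measured effector genes outside the gate 19 had an outer ratio below 0, with 7 at least 2-fold lower, 0 higher and a median of -0.43. Over all genes 44.2% were below 0 and 1.74% at least 2-fold lower. The step lay between the lower bins, where the median of GFPmed over GFPlow was -0.66 and that of GFPhigh over GFPmed 0.08. Ahnak, a scaffold protein of the cell cortex, had 175.9, 61.9 and 80.5 UPM. Maf, a transcription factor of effector Tregs, had 176.9, 68.9 and 74.5 UPM. Itgb1, the integrin beta 1 chain, had 358.6, 182.8 and 181.1 UPM. In each of these 3 GFPlow was high and the other bins lay together. Gata3, by contrast, had an outer ratio of 0.41 [0.23, 0.60].

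Interferon-inducible genes mostly had lower levels in brighter cells. Of 27 measured genes 22 had an outer ratio below 0 and 5 above, with 5 at least 2-fold lower (Ly6a, Gbp3, Iigp1, Irgm2 and Gbp2), 0 higher and a median of -0.45, against the same 44.2% and 1.74% over all genes. Here the larger median step lay between the upper bins, with a median of -0.31 for GFPhigh over GFPmed and -0.08 for GFPmed over GFPlow. Of the 27 genes 16 fell at both steps, as did 1270 of all 8023 measured genes. Ly6a, the surface protein Sca-1, had 605.0, 451.4 and 222.8 UPM, with an outer ratio of -1.44 [-1.61, -1.27]. Gbp2, an interferon-induced GTPase, had 277.6, 169.2 and 136.9 UPM, with its larger drop at the first step. Isg15, a ubiquitin-like protein induced by type I interferon, was higher in GFPhigh at 0.67 [0.18, 1.17].

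Resting Treg genes split. Of 26 measured, 12 had an outer ratio above 0 and 14 below, with 6 at least 2-fold lower (Cd55, Dapl1, Ly6c2, Igfbp4, Ly6c1 and Il7r) and 1 higher (Rgs10), with a median of -0.11. The shares over all genes were 44.2% below 0, 1.74% at least 2-fold lower and 2.68% at least 2-fold higher. Il7r, the interleukin 7 receptor, had 172.7, 100.3 and 78.1 UPM. Ccr7, a chemokine receptor for entry into lymphoid tissue, was close to level at 298.2, 278.4 and 299.7 UPM. Bach2, a repressor that keeps T cells quiescent, had an outer ratio of 0.68 [0.41, 0.94], and Rgs10 1.06 [0.88, 1.24].

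**Figure D4:**
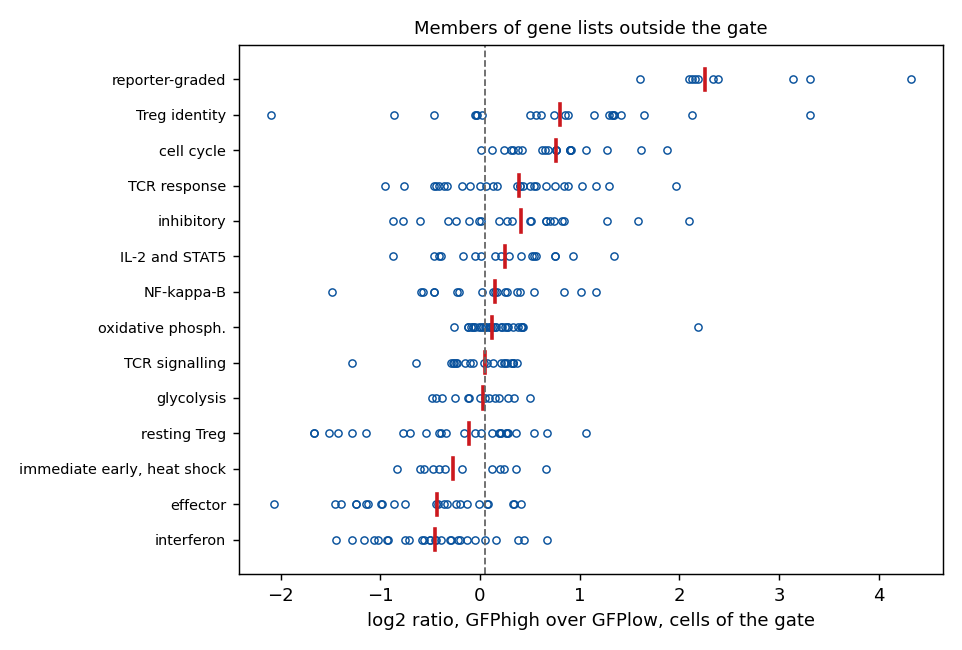
Log2 ratio of GFPhigh over GFPlow in gated cells for each measured member of 14 gene lists, as open circles, with the list median as a red bar and the median of all measured genes (0.05) as a dashed line. Treg identity genes centre at 0.80 and interferon genes at -0.45, while resting Treg genes reach from -1.66 to 1.06.

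Cell cycle genes outside the gate depended on the random draw. All 21 measured genes were higher in GFPhigh, with a median outer ratio of 0.76, against 55.8% and 0.05 over all genes. The cell cycle median was lower in each of 5 other draws, between 0.22 and 0.59, and 0.28 with the gate on all UMIs. In the undrawn UMIs of the gated cells, the cycling gate genes Mki67 and Top2a summed to 10.3, 48.1 and 25.1 UPM. These were 11, 71 and 25 UMIs, with an outer ratio of 1.25 [0.21, 2.46]. H2afz, a histone variant, had the most UMIs of the graded ones at 419.6, 582.6 and 1019 UPM, with an outer ratio of 1.28 [1.16, 1.40]. For Stmn1, a microtubule-destabilising protein, the outer ratio of 1.61 went to 0.28 with the gate on all UMIs.

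Gated and failing cells of the same libraries are disjoint, so the same ratio could be set side by side in both. Failing GFPlow cells mostly held effector genes and failing GFPhigh cells TCR-induced genes, so the ratio in failing cells compares unlike cells. Over 1898 genes with at least 100 UMIs in each, the 2 ratios had a Pearson correlation across genes of 0.58, where genes are not independent and share libraries. Of 52 genes at least 2-fold higher in failing GFPhigh cells, 45 had the same direction in the gate and 21 were again at least 2-fold. Of 76 that were lower, 70 had the same direction and 10 were again at least 2-fold. Chosen in the gate instead, 24 of 27 higher genes had the same direction in failing cells and 21 were 2-fold there, and for lower genes the counts were 18 of 18 and 10. Over all 1898 genes 64.0% had the same direction, and 2.21% had the same direction and were at least 2-fold in the gate. That 2.21% is the background for genes chosen in failing cells. For genes chosen in the gate, the background is the 52 and 76 of 1898 genes at least 2-fold higher and lower in failing cells.

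**Figure D5:**
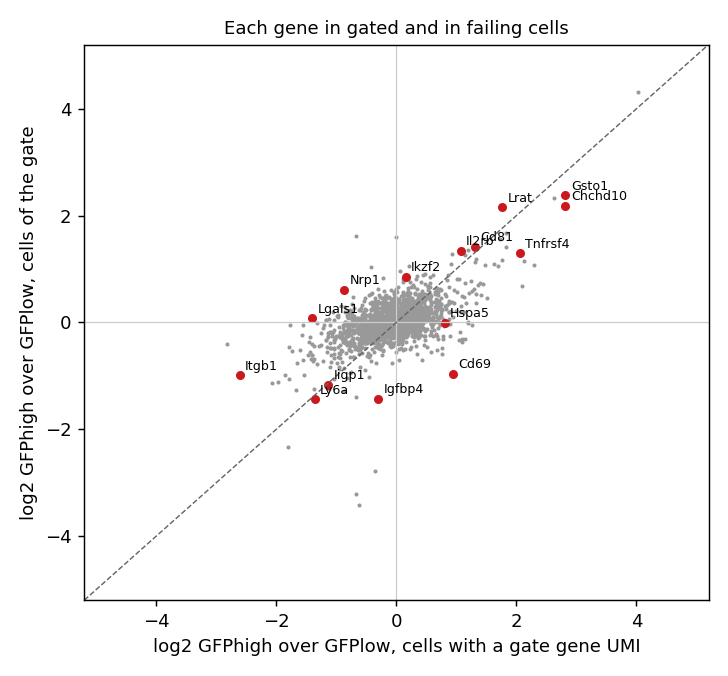
Log2 ratio of GFPhigh over GFPlow in gated cells against that in failing cells for 1898 genes, as grey dots, with some genes named in red and the line of equal ratios dashed. Lrat, Ly6a and Iigp1 lie near the line, whereas Itgb1 (-0.98 in the gate and -2.61 in failing cells) and Lgals1 (0.08 and -1.40) lie far above it.

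Among genes at least 2-fold either way in failing cells, the largest differences between the ratios were those of Cdc25b, Socs2, Itgb1, Rfk and Lgals1, all lower in failing GFPhigh cells. Genes under that fold in failing cells could differ as much, such as Cd69 (-0.96 and 0.94). Cdc25b, a phosphatase that starts mitosis, had -0.40 in the gate and -2.81 in failing cells, a difference of 2.41 [1.48, 3.46]. Itgb1 differed by 1.62 [1.29, 1.96] and Lgals1, the lectin galectin-1, by 1.48 [1.07, 1.91]. Among the same genes, the smallest differences were those of Ly6a, Iigp1, Irgm2, Samsn1 and Cd81. Ly6a differed by -0.08 [-0.39, 0.24] and Cd81, a tetraspanin, by 0.10 [-0.58, 0.76].

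Some genes near the head of the gated ranking had ratios of similar size in failing cells and others did not. Lrat had 2.16 in the gate and 1.76 in failing cells, Gsto1 2.39 and 2.82, Chchd10 2.19 and 2.82, and Penk 4.32 and 4.03. The differences for these genes had intervals that included 0. Gpr83 had 1 UMI in failing GFPlow cells against 46 in failing GFPhigh cells and 4.78 as its outer ratio there, with a difference of -2.65 [-8.58, -0.56]. By contrast, Stmn1 had 1.61 in the gate and -0.68 in failing cells, a difference of 2.29 [1.48, 3.14]. Hist1h2ao had 1.61 and 0.00 and Atpif1 1.60 and 0.34, with differences of 1.61 [1.20, 2.02] and 1.26 [0.30, 2.23]. The gated ratios of Stmn1 and Hist1h2ao depended on the gate and were 0.28 and 0.23 with the gate on all UMIs. Their intervals leave out this dependence. Ikzf2 had 0.86 in the gate and 0.15 in failing cells, a difference of 0.70 [0.48, 0.92], and Igfbp4 had -1.43 and -0.31, a difference of -1.12 [-1.67, -0.57]. For Myo6 the values were -2.54 and -0.88, the latter from 15 and 9 UMIs, with a difference of -1.66 [-3.02, -0.18].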

How the data were processed

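Single Tregs of 3 sorted bins were sequenced by inDrops on a NextSeq500, per the labels. The authors deposited UMI counts for each gene in each cell, without normalization. The submitters' processing notes name TopHat2, SAMtools and mm10. Versions and the counting program are not given in the sources used here. Mitochondrial genes with the mt- prefix number 0 in the table of 23725 genes, and 0 columns lacked a sample.

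Cells with at least 500 UMIs were thinned without replacement (seed 1) and gated. UMIs of gated cells were summed per bin, scaled to 1000000 and compared as log2 ratios after adding 0.5 UMI. Intervals are exact Poisson for levels, conditional binomial for ratios, conditional odds ratio for differences of ratios and Clopper-Pearson for shares. No doublets were removed and no clusters were made. Named genes were the 15 highest and 15 lowest ratios of GFPhigh over GFPlow and the 5 and 5 of the other pairs (at least 100 UMIs, and 20 cells in the higher bin), up to 4 per list, the 5 and 5 with the largest and smallest difference from failing cells, and fixed markers. Other genes in the text were named after their values were seen. Mitochondrial, ribosomal protein, antigen receptor and model genes were left out of the ranking, and antigen receptor genes are not analysed here. The members and lists were chosen with earlier results of these data known. Positions are from GENCODE M21. Steps used Python 3.11.15, numpy 2.4.6, scipy 1.17.1 and edgeR 4.0.16 (scaling factors only), and were tested on simulated data. The alternatives changed the gate, the draw, the UMIs counted, the scaling, the filters and the cells.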

Additional observations from a re-analysis of the deposited data

How the results depend on the processing

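No paired analysis was possible because each bin is 1 library with 0 replicates. The gated share of GFPlow, GFPmed and GFPhigh cells was 68.7%, 70.7% and 60.6% with a gate on all UMIs, 71.5%, 76.3% and 62.97% with a gate at 1000 UMIs, 56.4%, 68.3% and 56.1% with 9 more genes, 79.3%, 88.6% and 76.8% without cells with 2 UMIs of other cell types, and 3.53%, 5.47% and 3.15% under the widest gate, on all TCR-response and effector genes (215 cells). Over 6 draws it was 77.2% to 77.6%, 83.02% to 85.4% and 72.8% to 75.1%, so the draw used gave the highest GFPmed share. The outer ratios of the 15 highest and 15 lowest genes, of Treg identity and of interferon genes kept their direction under these gates where counts sufficed, except Hist1h2ao.

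Shares of genes depended on the UMIs behind them. They are given as percent at least 2-fold higher and lower for GFPhigh over GFPlow, GFPmed over GFPlow and GFPhigh over GFPmed, then graded up and down. With at least 20 UMIs (9603 genes) they were 4.68 and 3.03, 2.88 and 2.15, 3.52 and 2.32, 3.46 and 2.26. With at least 200 UMIs (4097 genes) they were 1.07 and 0.805, 0.268 and 0.122, 0.561 and 0.317, 0.903 and 0.659. From drawn UMIs alone they were 4.80 and 3.60, 3.22 and 3.58, 4.72 and 3.25, 3.69 and 2.59. Under the widest gate (761 genes) they were 5.78 and 5.12, 1.58 and 2.37, 4.73 and 4.73, 4.99 and 3.68. Undrawn UMIs gave 4.51 higher in the first pair, 2.34 and 1.70 in the second, 1.96 lower in the third and 3.68 graded up. With 5 UMIs added, 1.03 were lower in the first pair, 0.748 higher and 0.548 lower in the second, 0.511 lower in the third and 0.860 graded down. In the second pair 1.26 were lower with equal weight per cell, 1.21 lower without a gate and 0.810 higher without cells of other types. A fold of 1.5 graded 7.70 up and 4.52 down, and a fold of 3 graded 0.536 and 0.249.

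The cell cycle median of 0.76 was 0.28 with the gate on all UMIs, 0.32 with equal weight, 0.33 and 0.22 in other draws 1 and 5, 0.37 without cells of other types and 0.92 from undrawn UMIs. The ribosomal median was -0.031 with TMM scaling and the TCR-response median 0.57 without a gate. The B cell median of -0.01 was 0.72 with the gate on all UMIs and 1.08 in draw 3, and the erythroid median of -1.43 was -4.28 with the gate at 1000 UMIs and -3.80, -4.06 and -4.13 in draws 1, 4 and 5.

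Outer ratios that reversed belonged to genes carried by few cells. Car2 was -2.14 with the gate at 1000 UMIs, -0.13 without a gate, and -1.57, -1.74 and -2.18 in draws 2, 4 and 5. Ccna2 was -0.16, -1.41e-05 and -1.93 in draws 1, 3 and 5. Hist1h2an was -0.031 with the gate on all UMIs and -0.33 and -0.34 in draws 3 and 5, Hist1h2ah -0.19 and -0.61 in these, Hist1h2ae -0.17 in draw 5, and Hist1h2ao -0.16 in draw 5 and -0.69 under the widest gate. Hba-a2 was 1.43 without shared barcodes and 1.04 without the top cell of each bin. The cause was not tested.

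By a rule chosen after the results were seen, values were set apart where a gene had under 20 UMIs in GFPlow and GFPhigh together, or over 20% of a list's genes did. Of such values under the widest gate 36 turned their sign, among them the effector and homing medians (each 0.23), and of 92 under other settings 27 did. The erythroid median was then 0.63 without cells of other types, 0.68 without shared barcodes and 0.11 without the top cell of each bin, and the B cell median 2.02 with the gate at 1000 UMIs.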

Other observations

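Median outer ratios of metabolic gene lists in the gated cells were close to that of all measured genes, 0.05. For comparison, 55.8% of all measured genes were above 0, 2.68% at least 2-fold higher and 1.74% at least 2-fold lower. Of 30 genes of oxidative phosphorylation 22 had an outer ratio above 0 and 8 below, with a median of 0.12. Chchd10, at 2.19, was the single member at least 2-fold higher, and the others lay between -0.26 for Ndufb7 and 0.43 for Cox7a2. Of 14 glycolysis genes 8 had an outer ratio above 0 and 6 below, with a median of 0.03 and 0 at least 2-fold either way. Immediate early and heat shock genes, which tissue handling can induce, had 5 of 12 above 0 and a median of -0.27. Klf6, a zinc finger factor of that list, had 242.6, 179.5 and 135.6 UPM.

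Globin transcripts set GFPmed apart from the other bins. Hba-a2 had 126.6, 1113 and 18.2 UPM, and its 2375 UMIs in GFPmed came from 34 cells. Hbb-bs had 1009 UMIs in 14 GFPmed cells. MHC class II genes of B cells and dendritic cells were also concentrated, with 95 UMIs of H2-Aa in 9 GFPmed cells. Cells with these genes passed the gate, which tests only 3 B cell genes.

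Among the genes with the highest ratio of GFPmed over GFPlow were 4 histone genes. Hist1h3d had 9.01, 49.7 and 42.4 UPM and Hist1h2ah 9.01, 45.5 and 32.1 UPM. Histone genes of 1 family are near-identical in sequence, so the division of reads between them is uncertain. Their UMIs came from few cells, with 97 of Hist1h2ah in 21 GFPmed cells.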
